A study of Mus musculus with 20 samples.

Results

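Cultured mouse dorsal root ganglion (DRG) neurons were driven for 5 hr by long bursts (90 action potentials, 5 min apart, called 90/5) or by short bursts (18 action potentials, 1 min apart, called 18/1), and the long-burst samples were compared with the short-burst samples. The comparison used 8 of the 20 samples of the series, the 4 labelled 90/5 5 hr and the 4 labelled 18/1 5 hr, and they were chosen by these labels alone. Both patterns deliver action potentials at the same overall rate, so the comparison asks whether the timing of firing alters which genes are expressed. All neurons came from NIH Swiss mouse embryos at embryonic day 13.5 and were grown for 3 to 4 weeks in chambers that keep cell bodies and axons in separate compartments. They were treated with fluorodeoxyuridine against dividing non-neuronal cells, held overnight without serum, and driven with biphasic pulses of 6 V and 0.2 ms through electrodes across the compartment wall. Unstimulated sister cultures, handled alike, and neurons stimulated for 2 hr are used below to place these levels. Their samples also entered the normalization, the main spot filter and the fit, so the spread behind each p-value is pooled over all 20 samples. The methods describe RNA from 5 pooled cultures per condition and do not say which cultures entered which sample, so p-values measure the spread between these samples, which may be technical in part.

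Activity reaches the nucleus of a neuron through calcium entry and kinases. Calcium-dependent kinases and the MAP kinase cascade phosphorylate CREB and serum response factor, which switch on immediate early genes within minutes. Many of these genes encode transcription factors that control a later wave of effector genes, among them secreted factors such as brain-derived neurotrophic factor (BDNF). NF-kappaB is held in the cytoplasm by inhibitor proteins, some of which are also its targets. Sensory neurons of the DRG depend on neurotrophins in the embryo, and firing affects how their axons grow.

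Promoters are shown for 4 genes on which these results turn. Nr4a1 and Npas4 were, of the activity genes that the study names, those whose mean signals under both patterns lay farthest above the unstimulated mean. Hs3st2 and Pot1a were among the largest differences between the patterns, in opposite directions, and were the only 2 of the 28 named genes with a promoter in the RefSeq table (of 35 looked up) that hold the full cyclic AMP response element TGACGTCA, the letters bound by CREB. Each run of 300 bases reads 5' to 3' on the gene's strand, from 250 bases before the start of the gene to 50 after it, on GRCm38.p6. The windows are chr15:101266596-101266895 on the plus strand for Nr4a1, chr19:4989922-4990221 on the minus strand for Npas4, chr7:121392046-121392345 on the plus strand for Hs3st2 and chr6:25809169-25809468 on the minus strand for Pot1a. Capitals mark the full element or its short form TGACG, read as CGTCA where it lies on the other strand.
Nr4a1: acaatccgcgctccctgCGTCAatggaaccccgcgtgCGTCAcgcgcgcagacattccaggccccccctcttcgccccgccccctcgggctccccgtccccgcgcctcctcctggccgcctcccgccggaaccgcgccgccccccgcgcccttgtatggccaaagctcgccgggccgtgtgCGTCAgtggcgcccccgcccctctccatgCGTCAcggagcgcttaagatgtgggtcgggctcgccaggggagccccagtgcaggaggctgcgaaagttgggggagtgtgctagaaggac
Npas4: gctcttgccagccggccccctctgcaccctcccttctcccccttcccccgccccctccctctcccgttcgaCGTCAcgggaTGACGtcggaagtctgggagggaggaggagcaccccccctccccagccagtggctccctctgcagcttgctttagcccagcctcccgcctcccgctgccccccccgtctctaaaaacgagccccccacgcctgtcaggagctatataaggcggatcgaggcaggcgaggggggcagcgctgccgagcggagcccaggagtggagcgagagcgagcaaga
Hs3st2: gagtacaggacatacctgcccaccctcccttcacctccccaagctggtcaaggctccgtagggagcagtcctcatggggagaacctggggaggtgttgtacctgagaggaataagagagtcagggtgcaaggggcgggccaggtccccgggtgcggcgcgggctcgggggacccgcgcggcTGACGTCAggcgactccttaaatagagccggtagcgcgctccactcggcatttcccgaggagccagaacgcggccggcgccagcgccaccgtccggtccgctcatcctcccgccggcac
Pot1a: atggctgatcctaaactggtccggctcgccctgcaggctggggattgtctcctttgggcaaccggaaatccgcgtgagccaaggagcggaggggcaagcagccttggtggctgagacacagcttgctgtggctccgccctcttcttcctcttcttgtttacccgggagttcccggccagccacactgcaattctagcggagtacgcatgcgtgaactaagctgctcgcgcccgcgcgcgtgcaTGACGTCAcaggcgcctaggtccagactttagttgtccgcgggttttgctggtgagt

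The full element, which holds the short form on each strand, was in 1.79% of all 32851 promoters of that table and the short form in 20.8%, searched on both strands. The short form was found in the promoters of 12 of the 28 genes, Bdnf, Bmyc, Coq9, Egr4, Evx2, Fos, Hs3st2, Npas4, Nr4a1, Pot1a, Rgs2 and Tubb4. The kappa-B form GGANTTTCC was in 0 of the 28 and in 1.25% of all promoters. These matches describe letters in a window and not binding.

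Levels are normalized log2 signals of Agilent arrays, with 2 samples of 1 condition, labelled with Cy3 and Cy5, hybridised together on every array. The 18/1 5 hr samples were on arrays 5 and 6 of slide 2, and the 90/5 5 hr samples on arrays 9 and 10 of slide 3, so slide and pattern cannot be told apart in this comparison. Slide 2 also carried the 90/5 2 hr samples, on arrays 7 and 8. The median spot was 5.55 to 10.4 times its local background in the 18/1 5 hr samples and 2.66 to 4.91 times in the 90/5 5 hr samples. The scanner software marked 5319 to 14642 spots of 43020 as non-uniform in the 18/1 samples, against 37 to 85 in the 90/5 samples, and 1299 to 2800 against 0 as saturated. A saturated spot has reached the limit of the scanner and gives only a lower bound of the level. Of the 10355 genes tested, 2201 had a saturated spot in at least 1 of the 18/1 5 hr samples.

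Of the 10355 genes, 4701 (45.4%) differed between 90/5 5 hr and 18/1 5 hr at an adjusted p under 0.05 in limma, with Benjamini-Hochberg adjustment. With 90/5, 3065 (29.6%) were higher and 1636 (15.8%) lower. Of the called genes 2202 were more than 2-fold higher and 1114 more than 2-fold lower, and 397 and 215 passed 4-fold. The median difference over all genes was 0.23 (log2, 90/5 minus 18/1), and 65.2% of the called genes were higher. This split moved to 92.6% when arrays were only centred on their medians, to 50.8% when a trend on probe GC content was fitted in every sample and removed and to 50.2% without a spot filter. Without array 5 the count of called genes was 4109, and without array 6 it was 5708.

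Both 90/5 arrays lay above both 18/1 arrays for 4279 genes and below them for 2834, while the arrays overlapped for 3242. Of the called genes, 3036 were higher and 1631 lower on each 90/5 array than on each 18/1 array. By single samples, all 4 values of one group lay beyond all 4 of the other for 2970 genes upwards and 1838 downwards, together 46.4% of the genes tested, and 499 of the called genes overlapped in at least 1 sample. The 2 arrays of 18/1 5 hr differed from each other with an SD of 0.73 across genes and those of 90/5 5 hr with an SD of 0.41, against 0.23 for the unstimulated arrays.

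The levels in the other conditions place this difference. Over the genes called higher with 90/5, the median signal relative to unstimulated neurons was -1.20 in the 18/1 5 hr samples and 0.06 in the 90/5 5 hr samples. The 2 hr samples gave -0.48 with 90/5 and -0.01 with 18/1. Over the genes called lower, the 5 hr medians were 1.10 with 18/1 and -0.14 with 90/5, and the 2 hr medians 0.56 with 90/5 and -0.01 with 18/1. Without regard to sign, the median distance from unstimulated neurons was 1.21 and 1.10 at 18/1 5 hr for the genes called higher and lower, 0.49 and 0.57 at 90/5 2 hr on the same slide, and 0.17 and 0.21 at 90/5 5 hr. Single genes departed from this, with 90/5 5 hr minus unstimulated at 5.51 for Nr4a1, 1.51 for Lcn12, -1.57 for Akap7 and -1.79 for Nup210. Of these, Nr4a1 passed against unstimulated neurons (limma adjusted p = 1.03e-08). Lcn12 (limma adjusted p = 0.581), Akap7 (adjusted p = 0.938) and Nup210 (adjusted p = 0.0912) did not. All these medians share the unstimulated samples, and the genes were picked by their 5 hr samples, so these are descriptions.

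The difference between the patterns also followed a difference between 2 arrays of a single condition. Across genes, it correlated with array 7 minus array 8, both 90/5 2 hr, at r = 0.76, with array 6 minus array 5 at 0.40 and with array 9 minus array 10 at -0.05. Array 7 exceeded array 8 for 94.0% of the genes called higher and was below it for 91.0% of those called lower, against above it for 56.3% of all genes. The correlation with the GC content of the probe was 0.47. Genes are not independent replicates, and arrays share slides, so these coefficients carry no p. Among the 2622 probes with at most 35% GC, 6.94% were called higher and 33.6% lower, with a median difference of -0.43. Of the 889 probes with over 55% GC, 71.1% were called higher and 3.49% lower, with a median of 1.15. The part of probe composition and of the arrays in the gene differences below was not tested. For the genes described with the values of their samples or a test, the values after removal of the GC trend, or of the gene-wise direction of array 7 minus array 8 (a setting chosen after the data were seen), are given where the call was lost. For genes named with a difference alone these settings are not given. Where a probe was saturated in all 4 samples of a group, or not well above background in any, the difference has only a bound, given as a least fold from the group means.

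**Figure D1:**
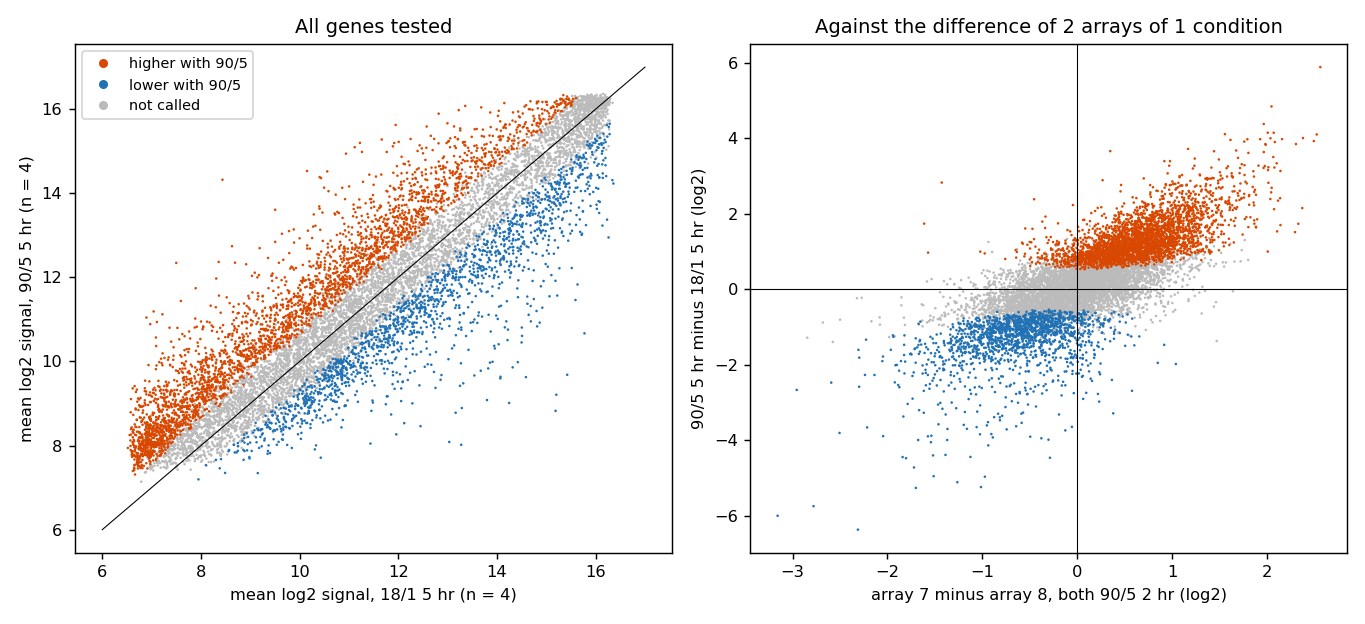
Each point is 1 of the 10355 genes tested. The left panel sets the mean log2 signal of the 4 samples at 90/5 5 hr against that of the 4 samples at 18/1 5 hr, and the right panel sets their difference against array 7 minus array 8 (both 90/5 2 hr), where the cloud runs along the diagonal (r = 0.76).

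**Figure D2:**
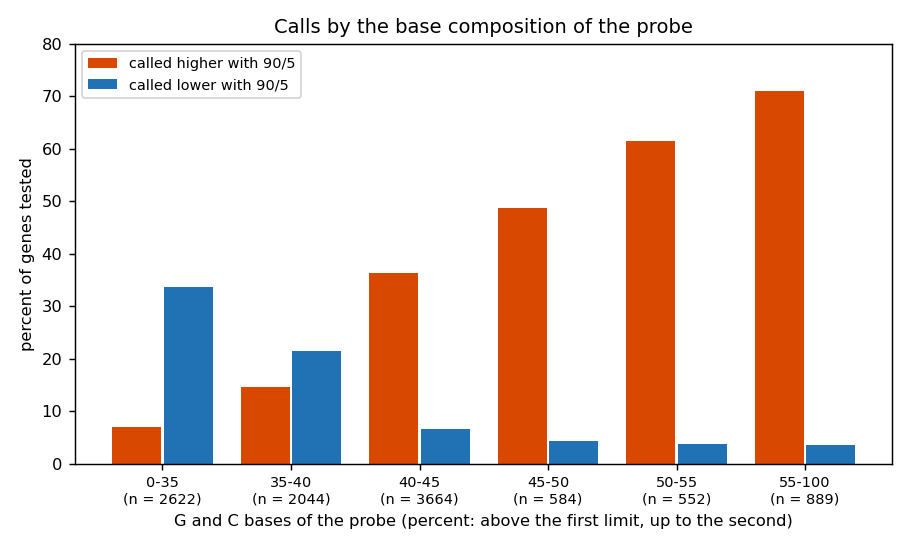
Percent of genes called higher or lower with 90/5 at 5 hr, by the GC content of the probe in 6 bins. The share called higher climbs from 6.94% in the lowest bin to 71.1% in the highest, while the share called lower falls from 33.6% to 3.49%.

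Several genes induced by activity had signals far above those of unstimulated neurons under both patterns. Of 15 immediate early transcription factors tested, 8 were higher with 90/5, 1 was lower and 6 did not pass, with a median difference of 0.70 against 0.23 over all genes. These are 53.3% higher and 6.67% lower, against 29.6% and 15.8% of all genes. Of 19 effector genes, 5 were higher (26.3%, near the share of all genes) and 1 lower, with a median of 0.33. Without array 5 the first list gave 3 higher and 2 lower, and without array 6 it gave 8 and 2. The effector list gave 3 higher without array 5 (median 0.09) and 9 without array 6 (median 0.63). With the GC trend removed, where 18% of all genes were higher and 17.4% lower, the first list gave 6 and 1, and the effector list gave 1 higher. The factors called higher were Egr1, Myc, Crem, Csrnp1 (1.20), Atf3 (1.17), Nr4a1, Btg2 (0.95) and Srf (0.70), and the factor called lower was Maff. The 6 that did not pass were Jun (0.59), Per1 (0.42), Jund (0.25), Klf6 (0.02), Fosl1 (-0.09) and Klf10 (-0.65).

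Nr4a1 encodes the orphan nuclear receptor Nur77 and has 4 copies of the short form TGACG in the promoter shown above. Its signals at 18/1 5 hr were 12.64 and 12.76 on array 5 and 12.75 and 12.90 on array 6, and at 90/5 5 hr 13.18 and 13.86 on array 9 and 14.24 and 14.05 on array 10. Every 90/5 sample lay above every 18/1 sample, and all lay above the unstimulated mean of 8.32 ± 0.39 (SD, n = 4). The difference was 1.07 (SE 0.37, limma adjusted p = 0.0242). It did not pass without array 10 (0.75, adjusted p = 0.256) or array 5 (1.00, adjusted p = 0.0503), without replicate 3 (0.91) or replicate 4 (1.16) of 90/5, or after removal of the GC trend (0.42, adjusted p = 0.383).

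Npas4 encodes a neuronal transcription factor induced by calcium, and its promoter above holds 2 copies of that form. It was read with the spot filter applied to these 8 samples alone, which 11188 genes passed, since it was dim in unstimulated neurons. The 18/1 samples were 11.94, 12.15, 12.47 and 12.25 and the 90/5 samples 12.20, 13.28, 14.22 and 13.14, from an unstimulated mean of 7.40 ± 0.25. The groups overlapped in 1 of the 90/5 samples, replicate 1. The difference was 1.01 (SE 0.52, limma adjusted p = 0.118), and without that replicate it was 1.28 and passed (adjusted p = 0.0354).

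Egr1 encodes a zinc finger transcription factor that serum response factor switches on. Its signals were 7.95 and 7.91 on array 5 but 10.49 and 10.67 on array 6, against 10.85, 11.15, 11.83 and 11.88 with 90/5. The 18/1 samples fell into 2 levels, of which the lower was near the unstimulated mean of 8.25 ± 0.40, and no 18/1 sample reached the 90/5 samples. The difference of 2.18 (SE 0.59, limma adjusted p = 0.00488) was 0.85 without array 5 (adjusted p = 0.138) and 1.75 without array 10 (adjusted p = 0.0896).

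Fos, Egr4, Rgs2 and Socs3 were high under both patterns and did not pass. Fos, a subunit of the AP-1 transcription factor, was 10.47, 10.67, 11.48 and 11.70 with 18/1 and 11.47, 11.66, 11.12 and 11.52 with 90/5, from 7.20 ± 0.05 in unstimulated neurons (difference 0.36, limma adjusted p = 0.472). For Egr4, a relative of Egr1, the values were 10.71, 10.54, 10.25 and 10.29 against 10.53, 10.64, 10.77 and 9.92, from 7.33 ± 0.36 (difference 0.01, SE 0.31, limma adjusted p = 0.975). These groups overlapped fully. Rgs2, which shortens signals of G protein-coupled receptors, gave 13.11, 12.97, 14.75 and 14.57 with 18/1 and 14.15, 14.19, 14.17 and 14.24 with 90/5. The 90/5 values of Rgs2 lay between those of the 2 18/1 arrays, so that its difference of 0.34 (SE 0.34, limma adjusted p = 0.433) was 1.15 without array 6 (adjusted p = 0.000698) and -0.47 without array 5. Socs3, a feedback inhibitor of cytokine signals, was 10.83 to 11.40 with 18/1 and 10.50 to 11.63 with 90/5 (difference -0.12, limma adjusted p = 0.801).

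Bdnf and Maff were higher with short bursts. Bdnf was 12.52, 12.82, 12.92 and 13.30 with 18/1 and 12.00, 12.36, 11.39 and 12.04 with 90/5, and its unstimulated mean was 10.52 ± 0.17. Both patterns thus lay above unstimulated neurons, though the rise of 1.43 with 90/5 did not pass (limma adjusted p = 0.0912). All 18/1 samples lay above all 90/5 samples. The difference was -0.94 (SE 0.30, limma adjusted p = 0.0141), and it was -0.54 after removal of the GC trend (adjusted p = 0.0950), -0.72 without array 6 (adjusted p = 0.0656), -0.71 without array 10 (adjusted p = 0.156) and 0.16 after removal of the direction of array 7 minus array 8 (adjusted p = 0.628). Maff, a small Maf transcription factor, was 13.09, 13.05, 12.63 and 12.76 with 18/1 and 11.81, 11.14, 11.71 and 11.57 with 90/5, from 10.67 ± 0.27. Its difference of -1.32 (SE 0.30, limma adjusted p = 0.00127) was -0.36 after removal of that direction (adjusted p = 0.176) and -0.69 with median centring alone (adjusted p = 0.116).

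Gadd45b and Myc were higher with long bursts. Gadd45b, a stress sensor that also acts in DNA demethylation, was 9.98, 9.49, 9.53 and 9.29 with 18/1 and 10.71, 10.45, 10.32 and 9.98 with 90/5, from 8.52 ± 0.11. The lowest 90/5 sample and the highest 18/1 sample were almost level. The difference of 0.79 (SE 0.25, limma adjusted p = 0.0122) was 0.14 after removal of the GC trend (adjusted p = 0.667), 0.43 after removal of the array direction (adjusted p = 0.0872) and 0.58 without array 9 (adjusted p = 0.156). Myc, a growth-promoting transcription factor, was 8.52, 8.74, 9.15 and 8.95 with 18/1 and 9.63, 9.73, 10.64 and 10.63 with 90/5. The unstimulated mean of Myc, 9.98 ± 0.27, lay above all 18/1 samples and within the range of the 90/5 samples. Its difference was 1.32 (SE 0.37, limma adjusted p = 0.00606), and 0.84 without array 10 (adjusted p = 0.182).

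Crem, Inhba and Pcsk1 were called higher as well, at lower signals or with smaller differences. Crem encodes a CREB family member, and it was 6.98, 6.41, 8.05 and 7.63 with 18/1 and 8.53, 8.74, 8.19 and 8.73 with 90/5 (difference 1.28, SE 0.36, limma adjusted p = 0.00717). Its spot was well above background in 2 of the 4 18/1 samples. The Crem difference was 0.71 without array 5 (adjusted p = 0.0926), 1.20 without array 9 (adjusted p = 0.0527) and 0.45 after removal of the array direction (adjusted p = 0.203), and a brighter probe of the gene with non-uniform spots gave -0.07. Inhba encodes the activin beta A subunit, and its difference of 1.36 (limma adjusted p = 0.00723) was 0.68 without array 5 (adjusted p = 0.125) and 1.19 without array 9 (adjusted p = 0.0651), and 2 of its 4 18/1 samples were well above background. Its 90/5 mean of 8.62 ± 0.41 was near the unstimulated mean of 8.94 ± 0.55. Pcsk1, a processing enzyme of prohormones, was 11.50 to 11.68 with 18/1 and 12.28 to 12.63 with 90/5 (difference 0.88, SE 0.30, limma adjusted p = 0.0230), but it did not pass after removal of the GC trend (0.72, adjusted p = 0.0533), without array 9 (0.85, adjusted p = 0.100), array 10 (0.90, adjusted p = 0.105) or replicate 4 of 90/5 (0.79, adjusted p = 0.101).

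Gem and Trpm6 were read because the study names them. Gem, a small GTP-binding protein, was 8.30, 7.55, 9.27 and 8.92 with 18/1 and 9.09, 9.54, 8.71 and 9.80 with 90/5 (difference 0.77, limma adjusted p = 0.118), and 1.36 without array 6 (adjusted p = 0.00443). Trpm6, a magnesium-permeable channel, was 8.15, 7.46, 9.17 and 8.89 against 8.99, 9.37, 8.54 and 8.13 (difference 0.34, limma adjusted p = 0.467). It was 0.95 without array 6 (adjusted p = 0.0256) and -0.27 without array 5. For both genes the groups overlapped, and the 18/1 samples of array 5 lay below those of array 6. Pim1 and Bcor, which the study measured by RT-PCR, did not pass the spot filters and are not reported.

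**Figure D3:**
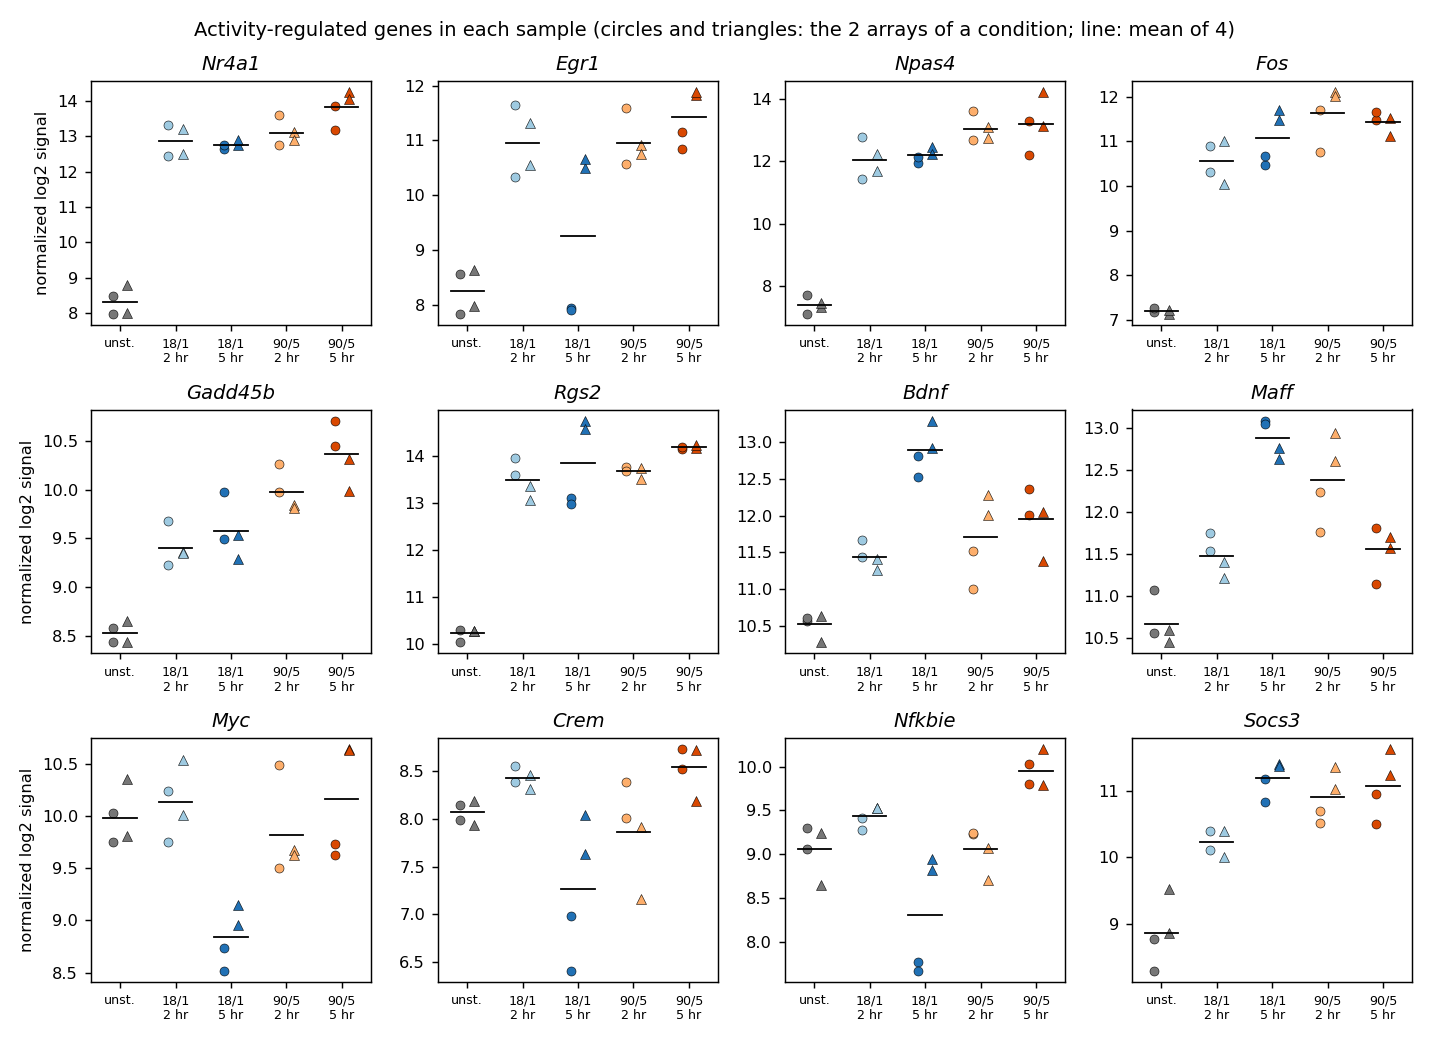
Normalized log2 signals of 12 activity genes in every sample of the 5 conditions, with circles and triangles for the 2 arrays of a condition and a line at the mean of 4 samples. Npas4, Fos and Nr4a1 lie high under both patterns at 5 hr, the 2 arrays of 18/1 5 hr stand apart for Egr1 and Rgs2, and Bdnf and Maff are lower with 90/5 than with 18/1 at 5 hr.

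For some of these genes the effect of pattern at 5 hr differed from that at 2 hr, on another set of slides. The difference between the 2 effects was tested as an interaction for 17 activity genes, of which 9 passed, while 44.8% of all genes tested passed. Egr4 was 1.45 higher with 90/5 at 2 hr and 0.01 at 5 hr, an interaction of -1.44 (limma adjusted p = 0.0121). Nfkbie was -0.37 at 2 hr and 1.65 at 5 hr (interaction 2.03, adjusted p = 0.00101). The share of these genes that passed was thus near the background. At 2 hr the patterns lay on slides 1 and 2, and at 5 hr on slides 2 and 3, and the slides cannot be told apart from the interaction.

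Members of the MAP kinase cascade were called higher with 90/5 more often than lower. Of 38 tested, 12 were higher and 1, Araf (-1.14, with 2 saturated 18/1 samples), was lower, with a median of 0.25 near that of all genes. The share called higher was close to the background of 29.6%. With the GC trend removed 9 were higher and 6 lower, and without array 6 14 and 5. Map3k11, which encodes the mixed lineage kinase MLK3, was 7.67, 7.53, 7.51 and 7.12 with 18/1 and 9.46, 9.29, 10.24 and 9.24 with 90/5, a difference of 2.10 (limma adjusted p = 2.38e-05). Map2k7, a kinase that activates JNK, was 6.86 to 7.40 with 18/1 and 8.52 to 8.75 with 90/5, a difference of 1.49 that was 0.36 after removal of the GC trend (adjusted p = 0.151). In both genes the groups lay far apart, and the 90/5 samples were near the unstimulated means of 9.19 ± 0.17 and 8.71 ± 0.15. Mapkapk2, a substrate of p38, was 1.09 higher (limma adjusted p = 0.000582), and 0.29 after removal of the GC trend (adjusted p = 0.235). Map2k4, another activator of JNK and p38, had 2 probes that disagreed, at 2.81 (0.58 after removal of the array direction, adjusted p = 0.133) and, with non-uniform spots, at -2.18. The rest called higher were Map2k2 (1.38), Mapk13 (1.31), Mknk2 (1.27), Map3k3 (1.03), Mapk8 (0.98), Map2k3 (0.87), Rps6ka1 (0.81) and Sos1 (0.80).

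In the NF-kappaB pathway the inhibitors Nfkbie and Nfkbib were higher with 90/5, and the inhibitor Nfkbia (0.33) and the subunit Rela (-0.51) did not pass. Of 18 members tested 6 were higher (33.3%, near the 29.6% of all genes) and 1 lower, with a median of 0.11. After removal of the GC trend 2 were higher and 1 lower. After removal of the array direction, where 20.4% of all genes were higher, the counts were 8 and 1 and the median 0.35. Nfkbie, which encodes the inhibitor IkappaB epsilon, was 7.77, 7.67, 8.95 and 8.82 with 18/1 and 9.80, 10.03, 10.20 and 9.79 with 90/5. All 90/5 samples lay above all 18/1 samples and above the unstimulated mean of 9.06 ± 0.29 by more than its SD. The rise of 0.89 over unstimulated neurons did not pass (limma adjusted p = 0.938). The difference between the patterns was 1.65 (SE 0.31, limma adjusted p = 0.000288) and passed in every alternative run. Nfkbib, the inhibitor IkappaB beta, was 11.79, 11.86, 12.10 and 12.37 with 18/1 and 13.77, 13.93, 13.96 and 14.03 with 90/5 (difference 1.89, SE 0.25, limma adjusted p = 7.23e-06). Its other probe gave 3.38, and its unstimulated mean was 13.81 ± 0.07, near the 90/5 samples. Traf6, a ubiquitin ligase that signals to the pathway, was 6.56 to 7.19 against 8.12 to 8.61 (1.37, limma adjusted p = 7.89e-05), but 0.23 after removal of the GC trend (adjusted p = 0.348), and was well above background in 2 of the 4 18/1 samples. Another Traf6 probe gave 0.22. Traf3, a negative regulator, was 13.24 to 14.61 against 12.09 to 12.88, a difference of -1.26 (limma adjusted p = 0.0112) with 1 saturated 18/1 sample. Without array 5 it was -0.81 (adjusted p = 0.0992), without array 9 -0.99 (adjusted p = 0.117), without the GC trend -0.86 (adjusted p = 0.0855) and without the array direction -0.38 (adjusted p = 0.332). Also called higher were the kinase Tbk1 (1.42), Traf2 (0.89) and the subunit Relb (0.73).

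Of 35 genes that carry calcium signals to CREB, 4 were called higher and 7 lower, with a median of 0.01. These are 11.4% and 20% of the list, against 29.6% and 15.8% of all genes. Without array 6 they were 10 and 8, and with the GC trend removed 7 and 6. Prkaca, the catalytic subunit of protein kinase A, was 7.08, 6.67, 7.41 and 7.28 with 18/1 and 9.07, 9.11, 8.93 and 9.28 with 90/5 (1.99, limma adjusted p = 5.46e-05). The Prkaca difference was 0.32 after removal of the array direction (adjusted p = 0.108), and 3 of its 4 18/1 samples were well above background. Camk1, a calmodulin-dependent kinase, was 9.10 to 9.51 against 10.65 to 11.21 (1.62, limma adjusted p = 7.66e-05). Mef2a, a transcription factor of calcium-regulated genes, was 12.88, 13.56, 11.71 and 12.42 against 9.84, 10.48, 9.75 and 10.58 (-2.48, limma adjusted p = 3.73e-06), although a further probe gave -0.04. Ppp3cb, a catalytic subunit of calcineurin, was 14.22 to 14.74 against 11.61 to 12.63 (-2.36, limma adjusted p = 8.50e-06), with 2 saturated 18/1 samples. In these 4 genes the groups lay apart by over 1 log2 unit. The other genes called lower were Calm3 (saturated in all 18/1 samples, at least 3.58-fold lower), Crebbp (-1.55), Camkk1 (-1.05) and, each with 2 saturated samples, Rcan2 (-1.32) and Camk4 (-1.19), and Camk2a (0.82) was higher. Without array 6 the list gave 10 higher and 8 lower.

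Lists of signalling molecules that the study itself chose on these samples are no independent evidence of direction. Of 18 Rac molecules that it lists for 18/1, 7 were higher with 90/5 (38.9%, against 29.6% of all genes) and 2 lower (11.1%, against 15.8%), while the median was -0.29, with Pak1 at 2.03 and Itga3 at 1.88 the highest and Wasf1 at -1.25 the lowest. From its 90/5 list of 15, 2 were higher and 4 lower, including Pak3 (-2.35) and Cyfip2 (saturated in all 18/1 samples, at least 3.50-fold lower). For calcium molecules listed for 90/5, the counts were 4 and 4 of 25, and 7 and 7 without array 6. For the Rac list of 18/1 the counts were 5 and 0 with the GC trend removed (median -0.025). With the array direction removed they were 6 and 1, and the median turned to 0.34. In the reported fit each of the 3 lists held members called in both directions.

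Genes of neurotrophins, of the related GDNF family and of their receptors were called in both directions. Of 10 tested, 3 were higher and 3 lower, 30.0% each, against 29.6% and 15.8% of all genes. Ntrk2, which encodes the BDNF receptor TrkB, was 6.83 to 8.17 with 18/1 and 9.22, 9.04, 9.72 and 9.30 with 90/5 (1.81, SE 0.36, limma adjusted p = 0.00042). Its 90/5 samples all lay above its 18/1 samples and near the unstimulated mean of 9.27 ± 0.12. The Ntrk2 difference was 0.57 after removal of the direction of array 7 minus array 8 (adjusted p = 0.0893), and 2 of its 4 18/1 samples were well above background. Ntrk3, which encodes TrkC, was 9.93, 9.52, 10.82 and 10.60 against 11.47, 11.91, 12.23 and 11.84 (1.65, SE 0.39, limma adjusted p = 0.0018), and 0.85 after removal of the GC trend (adjusted p = 0.0532) and 0.30 after removal of that direction (adjusted p = 0.403). The groups did not overlap, but the probes of Ntrk3 ran from -0.71 to 1.65. Nrtn, a ligand of the GDNF family, was 11.50 and 11.44 on array 5 and 9.85 and 9.997 on array 6, against 12.08, 11.73, 11.84 and 11.75 with 90/5 (1.15, SE 0.35, limma adjusted p = 0.0107). The 18/1 samples of array 5 lay just below the 90/5 samples, and without array 6 the Nrtn difference was 0.38 (adjusted p = 0.259). It was -0.087 after removal of the GC trend (adjusted p = 0.862) and 0.49 after removal of the array direction (adjusted p = 0.268), and it did not pass without array 9 (1.10, adjusted p = 0.0623) or array 10 (1.21, adjusted p = 0.0528). The remaining calls were the lower Gfra4 (saturated in all 18/1 samples, at least 2.52-fold), Bdnf and Frs2 (-0.80), an adaptor of receptor kinases. With the GC trend removed 1 of the 10 was higher and 3 lower, and with the array direction removed 1 and 2. Without array 6 the counts were 2 and 1, and without array 5 they were 3 and 4.

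Of 21 sodium and calcium channel genes 3 were called higher and 2 lower, and of 24 potassium and HCN channel genes 4 and 2. These are 23.8% and 25.0% of the lists, against 45.4% of all genes, and most members did not pass. With the GC trend removed the sodium and calcium channels gave 3 higher and 5 lower, and the potassium and HCN channels 2 and 8 with a median of -0.24, against 0.22 as reported. With the array direction removed they gave 2 and 7, and 2 and 3. Scn8a, the sodium channel Nav1.6 of nodes and initial segments, was 14.73, 14.74, 13.08 and 14.08 with 18/1 and 10.41, 11.17, 10.33 and 11.33 with 90/5 (-3.35, SE 0.36, limma adjusted p = 7.50e-07), with 1 saturated spot. In contrast Scn1a, Nav1.1, was 2.00 higher. Cacnb3, an auxiliary calcium channel subunit, was 11.06 to 11.49 against 12.25 to 13.36 (1.60, limma adjusted p = 0.000241), but 0.46 after removal of the GC trend (adjusted p = 0.141). Cacnb1 was not well above background in any 18/1 sample and was at least 2.41-fold higher with 90/5 (limma adjusted p = 8.48e-05), a call lost after removal of the GC trend (adjusted p = 0.33). The T-type channel gene Cacna1h was lower (-1.03). Kcna4, the A-type potassium channel Kv1.4, was 13.18, 13.73, 12.18 and 13.09 with 18/1 and 10.76, 11.43, 10.46 and 11.37 with 90/5 (-2.04, limma adjusted p = 9.66e-06). Kcnc4 was lower too (-1.99), while Kcnmb4 (1.53), Kcnd1 (1.27), Kcna6 (1.23) and Kcnk4 (1.15) were higher, and other probes of Kcnmb4 and Kcnd1 gave -0.28 and -0.24. After removal of the GC trend Kcnmb4 was 0.39 (adjusted p = 0.258) and Kcnd1 0.13 (adjusted p = 0.697), and after removal of the array direction Kcnmb4 was -0.093 (adjusted p = 0.702). Of the 4 18/1 samples 2 were well above background for Kcnmb4 and 3 for Kcnk4, and Kcna6 was saturated in 1.

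Of 18 genes of sensory neuropeptides and their receptors 2 passed (11.1%, against 45.4% of all genes), with a median of -0.03. Both were higher and encode peptides, Cartpt (1.23) for CART and Adcyap1 (1.21) for PACAP. After removal of the direction of array 7 minus array 8, 6 of the 18 were higher, and after removal of the GC trend 2 were lower. Of the 18 genes, 8 had a saturated 18/1 spot, so the low share does not show that the groups were level.

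Of 30 axon guidance genes tested, 8 were called lower with 90/5 (26.7%, against 15.8% of all genes), 1, the ephrin Efna5 (1.03), was higher, and the rest did not pass. The median was -0.41. Without array 6 the counts were 10 lower and 7 higher. After removal of the direction of array 7 minus array 8 they were 6 and 3 and the median was 0.024, and the median also turned sign under median centring alone. Sema4c, a membrane semaphorin, was 15.62, 15.40, 16.15 and 15.48 with 18/1 and 13.44, 14.04, 13.13 and 14.03 with 90/5. Its spot was saturated in all 4 18/1 samples, and it was at least 4.00-fold lower with 90/5 (limma adjusted p = 0.000743), although this call was lost with median centring alone (adjusted p = 0.0638). Ephb3, a receptor of ephrins, was 1.94 lower on the log2 scale (18/1 mean 15.10 ± 0.63, 90/5 mean 13.16 ± 0.48, limma adjusted p = 0.000777), with 3 saturated samples. Epha5 was 13.65, 14.61, 12.72 and 13.62 against 11.90, 12.67, 11.63 and 12.75, a difference of -1.41 (limma adjusted p = 0.000386) in which the groups overlapped narrowly. A dimmer probe of Epha5 gave -1.05 and another 1.19. The others called lower were Sema4d (-1.74), Plxna2 (-1.44), Robo2 (-1.14), Sema7a (-0.87) and Neo1 (-0.70).

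Of 34 genes of axon growth and regeneration 6 were called higher (17.6%) and 3 lower (8.82%), against 29.6% and 15.8% of all genes. Of the 34, 19 had a saturated 18/1 spot, so these low shares do not show that the groups were level. The counts were 4 and 4 with the GC trend removed or without array 5, and 8 and 3 without array 6. Higher were Stat3 (1.60), Marcks (1.26), Atf3, Basp1 (1.15), Klf9 (1.15) and Dpysl4 (1.14), of which Atf3 and Stat3 are known as injury-induced factors in DRG neurons. Lower were Rheb, Dpysl5 and Mtor (-0.91). Dpysl5, a collapsin response mediator protein, had means of 14.28 ± 0.61 and 12.12 ± 0.42 (-2.17, limma adjusted p = 0.000149), with 2 saturated 18/1 samples. For Rheb, the activator of the mTOR kinase, the probe used was saturated in all 4 18/1 samples and was at least 9.63-fold lower with 90/5, another gave -2.93, and a dim unsaturated probe gave 0.49.

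Among synaptic vesicle and SNARE genes 10 of 33 were called higher and 4 lower, 30.3% and 12.1%, near the shares of all genes. The counts were 5 higher and 6 lower after removal of the GC trend, and 4 and 4 after removal of the array direction. The syntaxin Stx1a (1.82), the synaptotagmins Syt7 (1.30) and Syt3 (1.25) and the synapsin Syn2 (1.26) were higher. Lower were Sypl (-2.17, 18/1 mean 13.32 ± 0.83, 90/5 mean 11.15 ± 0.79, with another probe at -0.70 that did not pass), the complexin Cplx2, Nsf, which takes SNARE complexes apart, and the active zone protein Erc2 (-1.38, with 1 saturated sample). Cplx2 and Nsf were saturated in all 4 18/1 samples and were at least 4.08-fold and 3.74-fold lower. The Cplx2 call was lost with median centring alone (adjusted p = 0.522), and of its other 4 probes, each saturated in 1 to 3 of the 18/1 samples, 1 passed (-1.91) and 3 did not (-0.90, -0.046 and -0.015). Kinesin and dynein genes gave 3 higher (9.68%, against 29.6% of all genes) and 7 lower (22.6%, against 15.8%) of 31, with a median of -0.10. They gave 4 and 4 with the GC trend removed, 4 and 3 with the array direction removed (median 0.11), and 5 and 7 without array 6. Of the 31 motor genes, 19 had a saturated 18/1 spot, so these shares rest largely on saturated probes. Klc1, a kinesin light chain, was 13.04, 13.23, 13.45 and 13.74 with 18/1 and 15.15, 15.40, 14.67 and 15.31 with 90/5 (1.77, limma adjusted p = 0.000106), but 0.42 after removal of the array direction (adjusted p = 0.0655). Kif21a (1.37) and Kif2a (0.78) were higher too, and Kif13a (-1.16) and Dynlt3 (saturated in all 18/1 samples, at least 2.66-fold) were among the lower. The dynactin gene Dctn6 gave -0.95 with a probe saturated in 3 samples (-0.85 without array 10, adjusted p = 0.0521) and 1.95 with another.

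Of 24 aminoacyl-tRNA synthetases 12 were called higher (50%, against 29.6% of all genes) and 3 lower, with a median of 0.67. Of 29 proteasome subunits 8 were higher (27.6%, median 0.23), and of 20 genes of cholesterol synthesis 6 were higher (30.0%, median 0.40). The last pair of shares lay near that of all genes. Histidyl-tRNA synthetase, Hars, was 12.70, 12.89, 13.38 and 13.87 with 18/1 and 15.30, 15.19, 15.10 and 15.58 with 90/5 (2.08, limma adjusted p = 1.29e-05). Its valyl counterpart Vars was 9.32 to 9.94 against 10.87 to 11.63 (1.73, limma adjusted p = 4.56e-05). Both lay apart without overlap and near their unstimulated means of 14.99 and 11.03 in the 90/5 samples. The proteasome genes Psmd2 and Psmb7 were 1.94 and 1.46 higher, with Psmd2 at 12.93 to 14.12 against 15.50 to 15.56. Srebf2, the transcription factor of sterol genes, was 6.68 to 6.87 against 7.85 to 8.14 (1.24, limma adjusted p = 0.000149), with 1 of its 4 18/1 samples well above background. The Srebf2 difference was 0.11 after removal of the GC trend (adjusted p = 0.68) and 0.34 after removal of the array direction (adjusted p = 0.0511), and another probe gave 0.22. Insig1 lost its call in both settings (0.35, adjusted p = 0.281, and -0.15, adjusted p = 0.54). Dhcr7 (1.04), Insig1 (1.00), Scap (0.91), Fdft1 (0.89) and Srebf1 (0.88) were also called. After removal of the GC trend the synthetases gave 4 higher and 4 lower, the proteasome subunits 3 and 3, and the sterol genes 1 higher. After removal of the array direction the 3 lists gave 8 and 2, 9 and 1, and 1 and 3, with the sterol median at -0.23. Without array 5 the proteasome subunits gave 6 and 3 (median -0.0017) and the sterol genes 7 and 0. Of the 29 proteasome subunits 22 had a saturated 18/1 spot.

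Histone genes gave 15 higher (55.6%, against 29.6% of all genes) and 4 lower (14.8%, against 15.8%) of 27, with a median of 0.76. Hist1h3d (2.34), Hist2h4 (2.01) and Hist1h2bm (1.90) were the highest, and probes of such near-identical copies may read each other. Among the lower were H3f3b, histone H3.3, at -2.50 (2 saturated samples, and -0.57 after removal of the array direction, adjusted p = 0.0703) and H2afy, macroH2A, at -2.47, but other probes of these genes gave 0.58 for H3f3b and 1.61 and 1.56 for H2afy. After removal of the GC trend 2 histone genes were higher and 5 lower. Histone methyltransferases and demethylases gave 8 higher (22.9%) and 7 lower (20%) of 35, from Kdm2a (3.03) and Setd8 (2.60) to Ehmt1 (-3.52, with 3 saturated samples) and Suv39h2 (saturated in all 18/1 samples, at least 9.80-fold lower), both of which methylate histone H3.

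Other large families had members called in both directions, where 29.6% of all genes were higher and 15.8% lower. Cytosolic ribosomal proteins gave 8 higher and 6 lower of 77, mitochondrial ribosomal proteins 18 and 13 of 67, and subunits of the respiratory chain and ATP synthase 14 and 11 of 87. Spliceosomal genes gave 17 and 7 of 55, heat shock proteins and chaperones 9 and 9 of 52, glycolysis 5 and 1 of 23, ubiquitin-specific proteases 6 and 5 of 31, and zinc finger Zfp genes 43 and 36 of 187. Of the cytosolic ribosomal proteins 18.2% were called either way and of the respiratory chain 28.7%, against 45.4% of all genes. A saturated 18/1 spot was found for 72 of these 77 and 72 of these 87 genes, and for 16 of the 23 glycolysis genes. Their low shares thus rest largely on saturated probes and do not show that the groups were level. With the GC trend removed, 18% of all genes were called higher and 17.4% lower. In several of these families more members were then called lower than higher, with 6 higher and 21 lower for cytosolic and 9 and 19 for mitochondrial ribosomal proteins, 7 and 21 for the respiratory chain, 7 and 10 for the spliceosome, 7 and 8 for chaperones, 1 and 4 for glycolysis and 35 and 40 for Zfp genes. Ubiquitin-specific proteases gave 7 and 6. Without array 6, where 37.7% of all genes were higher, 17 cytosolic ribosomal proteins, 17 chaperones and 68 Zfp genes were called higher, and 3 glycolysis genes lower. Without array 5, 3 ubiquitin-specific proteases and 8 glycolysis genes were higher. Hspa1a, an inducible heat shock protein, was 1.54 higher, and Slc2a1, the glucose transporter GLUT1, was the lower member of the glycolysis list (saturated in all 18/1 samples, at least 3.04-fold). Of 12 circadian clock genes, Cry2 (saturated likewise, at least 4.59-fold) and Clock (-1.00) were lower, and the list median was -0.04. Without array 5, 4 of the 12 clock genes were lower and the median was -0.48. Of all 30 lists, 10 had a larger share called higher than all genes and 12 a larger share called lower. The median of 17 lists turned sign after removal of the GC trend, that of 12 after removal of the array direction, and that of 7 under median centring alone.

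**Figure D4:**
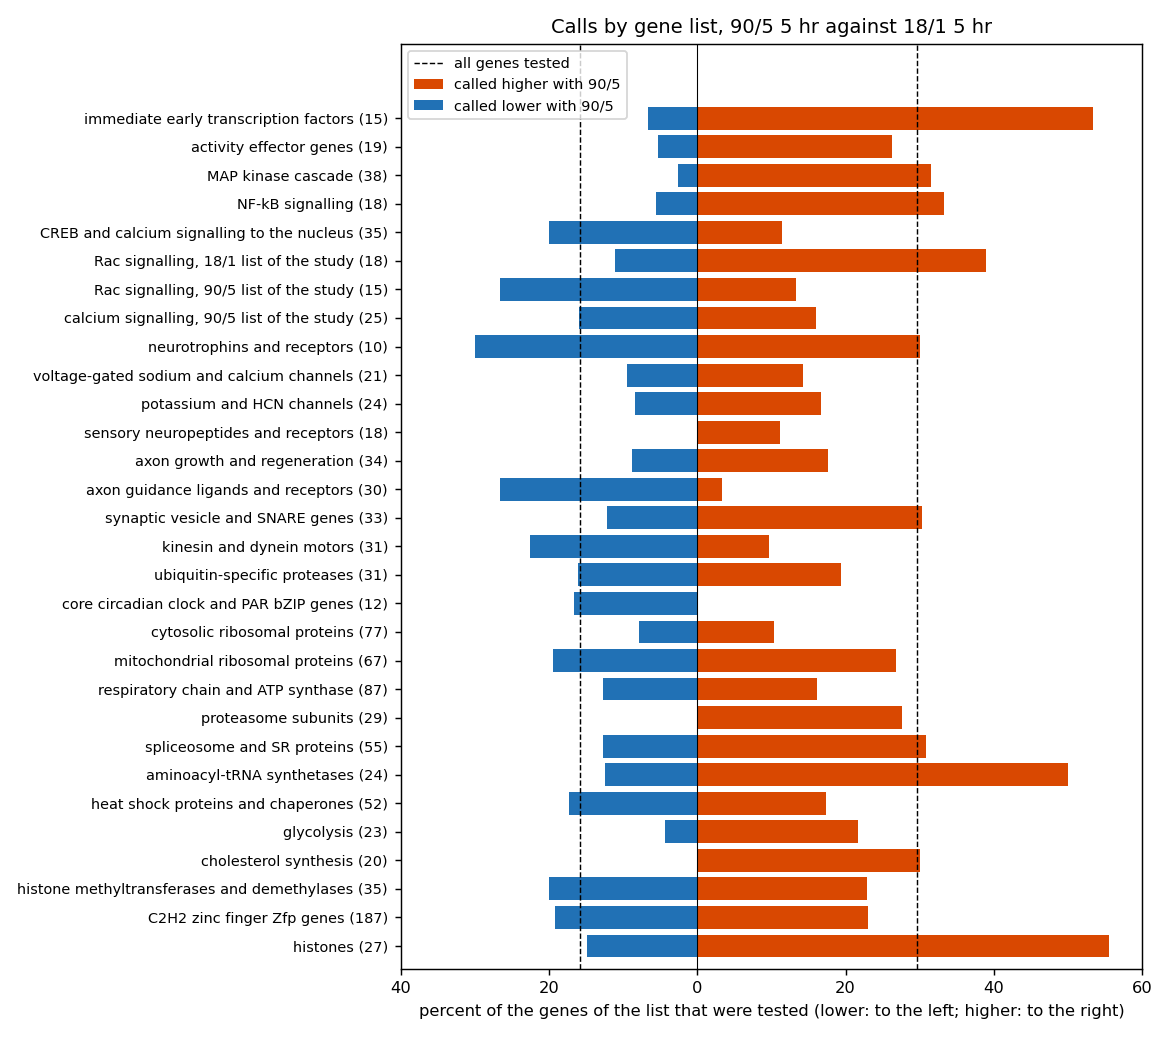
Percent of the tested members of each gene list called higher or lower with 90/5 at 5 hr, with dashed lines at the shares of all genes tested (29.6% and 15.8%). Histones, immediate early transcription factors and aminoacyl-tRNA synthetases extend farthest to the right, and neurotrophins and axon guidance genes reach beyond the dashed line for genes called lower.

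The largest differences were read among the 1694 called higher and 905 called lower genes without overlap, without a saturated spot and well above background in all 8 samples. Eri3, an exoribonuclease, was 7.62, 7.44, 9.86 and 9.84 with 18/1 and 12.20, 12.46, 12.19 and 12.55 with 90/5, a difference of 3.66 (SE 0.48, limma adjusted p = 7.56e-06; mm9 chr4:117322006-117346399). Svop, a transporter-like protein of synaptic vesicles, was 9.17, 8.66, 10.50 and 10.24 against 12.46, 12.77, 13.77 and 13.15 (3.39, limma adjusted p = 2.65e-06). In both genes array 6 lay above array 5 and well below the 90/5 samples, which were near the unstimulated means of 12.17 ± 0.05 and 12.78 ± 0.08. Lcn12, a lipocalin, was 9.91, 10.04, 8.04 and 7.68 against 12.26, 12.14, 12.41 and 12.45 (3.39, limma adjusted p = 6.50e-06). Its 90/5 samples were also above the unstimulated mean of 10.80 ± 0.27, but this rise of 1.51 did not pass (limma adjusted p = 0.581). Bmyc, a short relative of Myc, was 9.54 to 11.11 against 13.44 to 13.79 (3.29). Spr, sepiapterin reductase of tetrahydrobiopterin synthesis, was 9.42 to 11.09 against 13.32 to 13.82 (3.21). Hs3st2, a heparan sulfate sulfotransferase whose promoter is shown above, was 7.61, 7.43, 9.13 and 9.28 against 11.37, 11.60, 11.40 and 11.89 (3.20, limma adjusted p = 7.76e-06). The 2 others of the 8 were the gene models Tubb2a-ps2 (3.23) and Gm13141 (3.16), whose probes may read related copies.

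In the other direction, the same rule named 8 genes. Gcgr, the glucagon receptor (mm9 chr11:120400221-120400280), was 13.88, 14.53, 12.98 and 13.30 with 18/1 and 9.71, 9.71, 9.80 and 9.90 with 90/5 (-3.89, SE 0.38, limma adjusted p = 3.37e-07). Pot1a, which protects telomeres and has the full element in the promoter above, was 13.42, 14.18, 12.29 and 13.12 against 9.21, 9.74, 8.95 and 9.78 (-3.83, SE 0.30, limma adjusted p = 4.32e-08). In these 2 genes the 90/5 samples lay near or below the unstimulated means of 9.62 ± 0.23 and 10.36 ± 0.53, while the 90/5 2 hr samples had means of 12.59 ± 0.92 and 12.68 ± 0.76. Akap7, an anchor of protein kinase A, was 13.10 to 13.59 against 8.81 to 10.54 (-3.84), but its other probes gave -0.74 and 0.15 and did not pass. Igdcc3, an immunoglobulin family membrane protein, was 11.54 to 13.98 against 9.24 to 9.48 (-3.38), and the nuclear pore protein Nup210 was 11.29 to 13.36 against 8.55 to 9.27 (-3.28). The further 3 were Olfr173 (-3.69), Zfp937 (-3.59) and Tuba3a (-3.39), members of families with similar copies. Other probes of Zfp937, with non-uniform spots, gave -0.98, which passed, and -0.50, which did not.

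The 90/5 2 hr samples allow a comparison of the 2 patterns within slide 2, although at unequal times and on 2 unlike arrays. Array 7 had 45 and 139 non-uniform spots in its 2 samples, and array 8 had 3138 and 6476. The median spot was 3.83 and 3.64 times its local background on array 7 and 4.74 and 6.71 times on array 8. Sharing a slide thus did not make the arrays alike. Of the 10355 genes, 1339 (12.9%) differed between 90/5 2 hr and 18/1 5 hr by the same test, 1053 higher and 286 lower. Genes that passed in both comparisons, in the same direction and without overlap, numbered 432 higher and 134 lower, and both comparisons share the 18/1 5 hr samples. Evx2, a homeobox gene, was 7.06, 7.12, 7.26 and 7.17 with 18/1 and 9.73, 9.84, 10.44 and 9.93 with 90/5 at 5 hr, and 9.32 ± 0.85 with 90/5 at 2 hr. The 18/1 samples of Evx2 lay close together and were below the unstimulated mean of 9.58 ± 0.15. The brain beta-tubulin Tubb4 was 12.28, 12.41, 12.44 and 12.78 against 14.98, 15.11, 14.69 and 15.48 (2.59), with 14.43 ± 0.82 at 90/5 2 hr. Coq9 of ubiquinone synthesis and Marcksl1, an actin-binding protein, were 2.25 and 2.31 higher than at 18/1 5 hr with 90/5 at 5 hr, and 2.01 and 1.94 higher with 90/5 at 2 hr, but after removal of the array direction their 5 hr differences were 0.70 (adjusted p = 0.0547) and 0.76 (adjusted p = 0.0771). Eri3 and Hs3st2 were also among these genes, at 2.43 and 2.04 with 90/5 at 2 hr. In the other direction, Gjc1, the gap junction protein connexin 45, was 10.94, 11.37, 9.52 and 9.88 with 18/1 and 7.68, 7.74, 7.74 and 7.69 with 90/5 at 5 hr, and 8.44 ± 0.35 at 90/5 2 hr. The splicing regulator Hnrpll (-2.11 at 5 hr, -1.84 at 2 hr) and the ubiquitin ligase Ankib1 (-2.20 and -1.80) followed, with Tuba3a, Olfr173 and Nup210. For all of these genes the 90/5 2 hr mean lay between the 18/1 and 90/5 means at 5 hr.

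**Figure D5:**
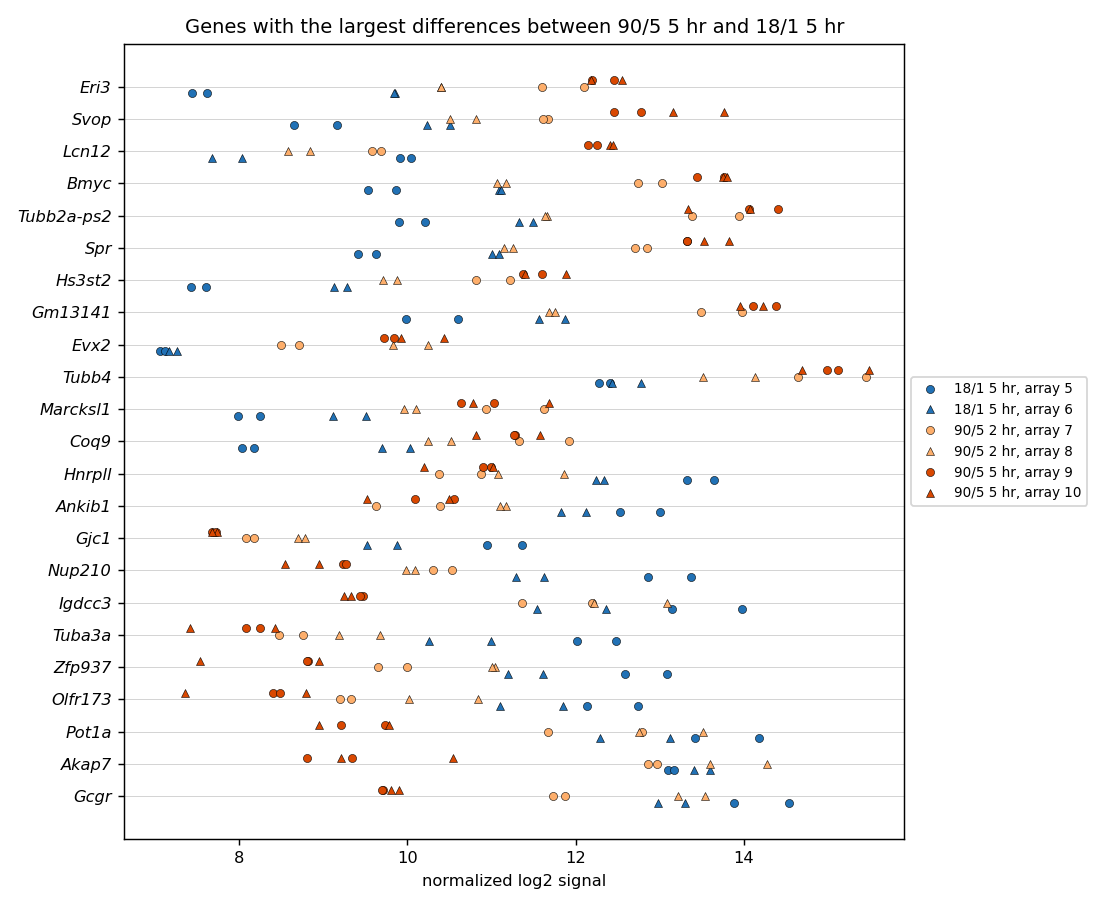
Normalized log2 signals on arrays 5 to 10 of the genes with the largest differences between 90/5 and 18/1 at 5 hr, and of those that also differed within slide 2. The 18/1 5 hr samples (arrays 5 and 6) are set apart from the 90/5 5 hr samples (arrays 9 and 10) in every gene, and the 90/5 2 hr samples (arrays 7 and 8) lie between them for most.

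The labels call the cells DRG neurons, although the growth protocol names the spinal cord as the tissue that was dissociated, so markers of both were read. Genes listed as markers of sensory neurons were present. The list also holds genes of neurons in general, such as Tubb3 and Snap25, so its sum cannot tell DRG from spinal cord. All 13 sensory neuron markers that were read were well above background in all 8 samples, and their summed log2 signal was 18.9 to 19.4 with 18/1 and 18.8 to 19.7 with 90/5. Tubb3, Uchl1, Prph, Nefl, Nefm, Calca and Tac1, among the brightest of them, were saturated in all 4 18/1 samples, so the 18/1 sums are bounds and do not show that the groups were level. Of 12 tested, Elavl4 (-1.33) was lower. Bulk samples cannot tell fewer cells of a type from less RNA per cell. Fibroblast markers summed to 17.2 to 17.6 with 18/1 and 16.6 to 17.2 with 90/5, and the collagens Col1a1 (-1.81, with 3 saturated samples) and Col3a1 (-1.22, with 1) and decorin, Dcn (-1.17), were lower, 3 of 6 tested. Markers of dividing cells summed to 13.8 to 14.2 against 12.7 to 13.4, and Birc5 (-1.30) was lower, the single one tested. Endothelial markers summed to 10.3 to 10.7 against 12.0 to 12.6, with Kdr at means of 8.93 and 12.09 and Cldn5 the other way, at 8.86 and 6.96. Of these markers Pecam1 alone was tested (1.35, well above background in 1 18/1 sample), while Tie1 and Tek were not well above background in any of the 8 samples. The sums of Schwann cell and satellite glia markers (16.6 to 17.4 against 17.0 to 17.6, with 1 marker saturated in all 18/1 samples) and of macrophage markers (13.5 to 14.9 against 14.2 to 14.6) overlapped. Spinal cord neuron markers summed to 10.2 to 11.3 against 10.4 to 10.8. The single one tested, Slc18a3, a vesicular acetylcholine transporter, was 1.72 higher with 90/5 (limma adjusted p = 3.06e-05). The others, not tested, went both ways. Chat, Gad1 and Gad2 were well above background in all 18/1 samples (means 8.15, 8.73 and 8.20) and in no 90/5 sample, whereas Mnx1 was so in no 18/1 and all 90/5 samples (means 6.43 and 7.01). Slc32a1 was well above background in all 8 (means 7.73 and 9.04), Lhx3 in 1 90/5 sample and Slc6a5 in none. The part of these cell types in the differences above was not tested.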

How the data were processed

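Gene expression was measured in 20 samples of cultured DRG neurons on 10 Agilent 2-colour arrays of 3 slides. The authors deposited the intensity of each spot and of its local background in each colour, on a linear scale and not normalized, and marked spots that were saturated, were non-uniform or lay well above background. Per the file headers, slide 1 was extracted with Agilent Feature Extraction 10.7.1.1 and slides 2 and 3 with 10.7.3.1. For each array, 36 further columns per colour, among them the processed signals, were not used. Probe positions are those of the array's design on mm9. The exon that a probe lies in was not analysed here.

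Computation used limma 3.58.1 and statmod 1.5.0 in R 4.3.3, and matplotlib 3.10.9, numpy 2.4.6 and pandas 2.3.3 in Python 3.11.15 for the figures. Background was subtracted by normexp with an offset of 50, colours were normalized by loess within arrays and arrays by Aquantile. Kept spots were at least 2 times their background and not marked non-uniform in all 20 samples. The brightest probe stood for each of 10355 genes (86.5% of names matched the reference). The limma fit held all 20 samples, condition means, a colour term and the array as a random block (correlation 0.53), with empirical Bayes moderation, and was tested on simulated data. The contrast was 90/5 5 hr minus 18/1 5 hr. The number of arrays, 2 per condition, limits its precision.

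Named genes were the 8 largest differences each way that did not overlap, were unsaturated and were well above background, the 6 each way that also differed within slide 2, a set of genes that the study names or measured by RT-PCR, and, from each gene list, those with the smallest p, with other called members added. Members and lists were chosen with earlier results of these data known, and 2 lists were trimmed of genes caught by spelling alone. The alternatives were other background, scaling, spot, probe, model, weight and test settings, GC correction of the probes and leaving out arrays and samples. Removing the direction of array 7 minus array 8 was chosen after the data were seen. The authors' RT-PCR and immunoblots were not analysed here, and some genes and lists are not reported here.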

Additional observations from a re-analysis of the deposited data

Results flagged for a closer look

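Samples that stood apart were looked for within each group of 4, by the gap of the highest or lowest sample over the whole range of the group, against Dixon's critical value for 4 samples. For 4 independent normal values, chance alone passes this limit in about 1 in 20 groups. Here the samples share arrays in pairs, so this rate need not hold. With many genes read, some are likely to pass by chance. In the 90/5 5 hr samples the ratio was 0.954 for Sypl, 0.927 for Mapkapk2, 0.898 for Zfp937, 0.891 for H3f3b, 0.871 for Bmyc and 0.844 for Hnrpll. In the 18/1 5 hr samples it was 0.867 for Cacnb1.

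The effect of pattern (90/5 minus 18/1) differed between 5 hr and 2 hr for 9 of the 17 activity genes in which the difference was tested by limma, while 44.8% of all genes passed the same test. The effect was lower at 5 hr for Maff (interaction -2.23, adjusted p = 0.000275), Egr4 (-1.44, adjusted p = 0.0121) and Bdnf (-1.20, adjusted p = 0.0249). It was higher at 5 hr for Egr1 (2.18, adjusted p = 0.0365), Nfkbie (2.03, adjusted p = 0.00101), Crem (1.85, adjusted p = 0.00627), Inhba (1.64, adjusted p = 0.0188), Myc (1.63, adjusted p = 0.0142) and Pcsk1 (1.28, adjusted p = 0.0196). Each of these 4 conditions lies on 1 slide, and slide and condition cannot be told apart in the interaction.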

How the results depend on the processing

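Against 4701 genes called in the reported fit, 8227 were called without a spot filter, 3130 with only the 18/1 5 hr, 90/5 2 hr and 90/5 5 hr samples in the fit, and 2952 after Benjamini-Hochberg adjustment of the methods' t-test, which gave 4658 without it. With only the 8 compared samples in the fit 3451 genes were called. Leaving out 1 array or sample gave 3230 to 5708 genes, of which 59.7% to 68.5% were higher. The share higher was 65.2% as reported, 92.6% with median centring alone, 73.8% with saturated probes left out, 68.0% by the adjusted t-test, 67.1% with those 3 conditions in the fit, 67.0% with every probe, 66.6% with the filter over the 8 samples, 62.5% after removal of the direction of array 7 minus array 8, 62.3% without the array block, 61.0% with the background rule alone, 50.8% after removal of the GC trend and 50.2% without a spot filter. With the GC trend removed, 2600 of the 4701 genes were still called in the same direction and 306 had the opposite sign. With the direction of array 7 minus array 8 removed, 2023 were called and 694 had the opposite sign, and with median centring alone 3456 and 244. The causes of these shifts were not tested, and a fit on the scanner's processed signals was left out.

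Over the named genes, 2131 values kept their direction and side of the threshold, 111 no longer passed, 18 newly passed and 30 changed sign. With median centring alone Socs3 was 0.80 and Dctn6 2.39. Both with the background rule alone and without a spot filter, another probe was used for Crem (-0.072), Map2k4 (-2.18), Kcnmb4 (-0.28) and H3f3b (0.58), as for Rheb (0.49) and Dctn6 (1.95) with saturated probes left out. Rgs2 was -0.31 and Nrtn -0.087 after removal of the GC trend. After removal of the direction of array 7 minus array 8, Bdnf was 0.16, Socs3 0.62, Kcnmb4 -0.093 and Insig1 -0.15. Leaving out 1 array or sample gave -0.47 to 1.15 for Rgs2, -0.27 to 0.95 for Trpm6, -0.15 to 0.88 for Fos, -0.47 to 0.24 for Socs3 and -0.16 to 0.19 for Egr4. No paired analysis was possible because the columns of the 18/1 5 hr samples carry no replicate number.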

Other observations

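Probes for the same gene often gave different answers in this comparison. Of 1564 genes with more than 1 of the 12137 probes tested, 717 had probes of both signs. Among the 393 genes with at least 2 probes called, the called probes ran in 1 direction in 260 and in both directions in 133. H2afy and Dctn6 are examples among the genes described above, whereas both probes of Nfkbib ran upwards, at 1.89 and 3.38.

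A set of genes was called in the same direction in each of 6 settings: without array 5, 6, 9 or 10, after removal of the GC trend and after removal of the direction of array 7 minus array 8. It held 658 genes higher with 90/5 and 445 lower. Of the genes described above, the higher included Nfkbie, Nfkbib, Map3k11, Camk1, Hars, Vars, Psmd2, Psmb7, Eri3, Svop, Hs3st2 and Evx2. The lower included Scn8a, Kcna4, Mef2a, Ppp3cb, Epha5, Ephb3, Gcgr, Pot1a and Gjc1. Other probes gave -0.04 for Mef2a and -1.05 and 1.19 for Epha5. All 6 settings kept the patterns on separate slides and read 1 probe per gene.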
